A study of Mus musculus with 5 samples.

Results

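Of the 43 RNAs in the deposited table of bktRNAs, 7 are not labelled intronic: 5 are labelled intergenic and 2 exonic, and the other 36 are intronic. The 7 were taken by that position label alone, with no measured level used. They are bktRNA13, bktRNA21, bktRNA33, bktRNA39 and bktRNA40, which lie between annotated genes, and bktRNA14 and bktRNA18, which lie in the 3′ untranslated regions (3′ UTRs) of Eme1 and Gpd1l. The values come from 5 RIP-PEN-seq libraries of Hepa1-6 cells, a mouse hepatoma line, with stable overexpression of FLAG-tagged 15.5K. RNA was recovered with an anti-FLAG antibody, depleted of ribosomal RNA and made into small RNA libraries. All 5 libraries carry the same genotype, line and antibody, form 1 group and are numbered 1 to 5 in the titles. No input, unspecific antibody or untagged cell library was analysed here, so a level is the amount found in the precipitate and not an enrichment, and the cells make more 15.5K than their endogenous gene alone. The labels do not say whether the libraries came from separate cultures, so their spread may be technical.

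The protein 15.5K, also named Snu13, binds the kink turn, a sharp bend in an RNA helix built on G·A pairs. In box C/D snoRNAs, which guide ribose methylation, the kink turn forms where box C near the 5′ end meets box D near the 3′ end, and the same protein binds U4 snRNA in the spliceosome. In a bktRNA the boxes stand in the reverse order, with box D upstream of box C. Most known snoRNAs of mammals are released from introns of host genes, so an RNA of this kind between genes or in a 3′ UTR lies outside that usual setting.

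The sequences of 6 of the RNAs show the part that defines them, the boxes and the stem between them. They are the deposited sequences on mm10, read 5′ to 3′ on the strand of the RNA, with box D (CTGA) and box C (ATGATG or GTGATG) in capitals and T for U. For bktRNA13 the whole RNA is shown, for bktRNA18, bktRNA33 and bktRNA39 the stretch from box D to box C, and for bktRNA21 and bktRNA40 the 2 arms that face each other, without the loop.
bktRNA13, chr7:81774511-81774538, plus strand: ttctCTGAcaaggattgaATGATGatat
bktRNA18, chr9:114901493-114901518, minus strand: CTGAcctgctgtttgtaggaATGATG
bktRNA33, chrX:17683094-17683117, minus strand: CTGActgttctcatcaggATGATG
bktRNA39, chr9:109845817-109845843, plus strand: CTGAagacaggatgctgtctgGTGATG
bktRNA21, chr1:42908546-42908558, plus strand, 5′ arm: tcatCTGAtcctt
bktRNA21, chr1:42908579-42908593, plus strand, 3′ arm: aaggagGTGATGata
bktRNA40, chr11:38638642-38638654, minus strand, 5′ arm: ctctCTGAtgctc
bktRNA40, chr11:38638616-38638629, minus strand, 3′ arm: gagcatGTGATGac

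Each of the 7 sequences can pair the bases just after box D with the bases that end 1 nt before box C. In bktRNA39 that stem has 6 Watson-Crick pairs around a loop of 4 nt, the longest stem of the 7. bktRNA21 and bktRNA40 have 5 pairs each, with loops of 20 nt and 12 nt. The other 4 have 3 pairs, with loops of 3 nt in bktRNA13, 7 nt in bktRNA33, 9 nt in bktRNA18 and 17 nt in bktRNA14. bktRNA14 can form 3 more pairs after 1 mismatch, and its deposited score of 11 is above the 8 hydrogen bonds of the uninterrupted stem. In the other 6 the score, which has no stated definition, equals the hydrogen bonds of the stem, from 7 in bktRNA13 to 15 in bktRNA39. With G-U pairs allowed, the stem of bktRNA18 becomes 5 pairs and the other 6 stems keep their length. No pair outside the canonical ones was scored, so these are complementary letters and not a measured structure.

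**Figure D1:**
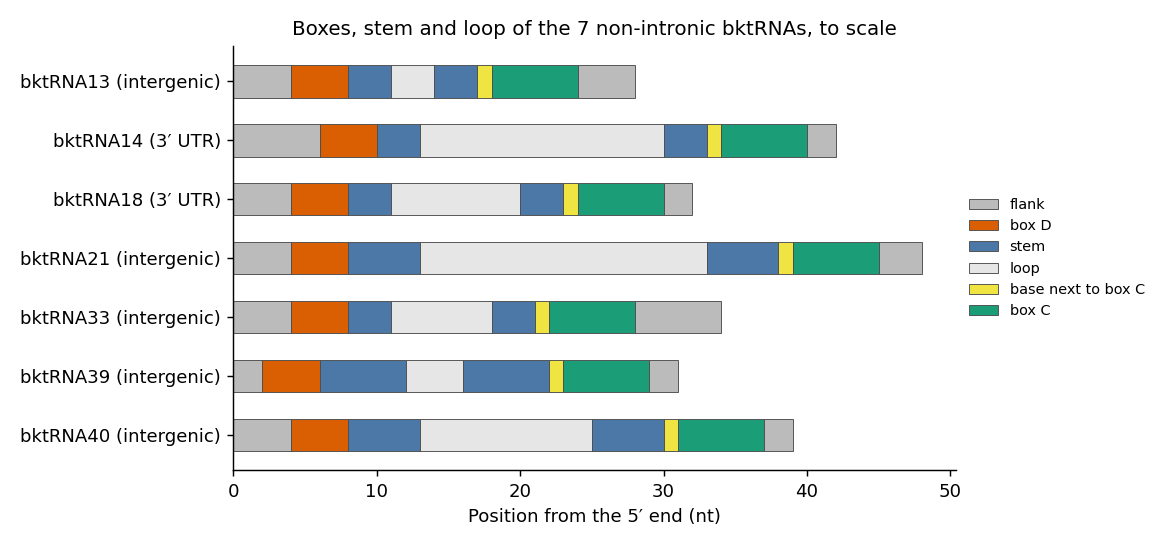
Boxes, stem and loop of the 7 non-intronic bktRNAs drawn to scale, with the position in nt from the 5′ end on the horizontal axis and 1 RNA per row. Each has box D before box C, the stem is longest in bktRNA39 (6 pairs), and the loop is longest in bktRNA21 (20 nt).

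The minimum free energy fold of each whole sequence, from RNAfold, held all stem pairs in 3 of the 7 (bktRNA18, bktRNA21 and bktRNA40) and none of them in the other 4. The fold energies ranged from -11.1 kcal/mol for bktRNA14 to -0.2 kcal/mol for bktRNA13, the shortest RNA of the 7. Among the intronic RNAs all stem pairs were in the fold for 17 of 36 (47.2%), against 42.9% of the 7. RNAfold models neither the G·A pairs of a kink turn nor the bound protein.

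The ends of the 7 vary more than the boxes. Box D starts after 4 nt in 5 of them, after 6 nt in bktRNA14 and after 2 nt in bktRNA39. Box C, taken as 6 letters, is followed by 2 nt in bktRNA14, bktRNA18, bktRNA39 and bktRNA40, by 3 nt in bktRNA21, by 4 nt in bktRNA13 and by 6 nt in bktRNA33. The layout with 4 nt before box D and 2 nt after box C occurs in 2 of the 7 (28.6%), bktRNA18 and bktRNA40, and in 23 of the 36 intronic RNAs (63.9%). The next base after box C is an A, which completes the full snoRNA box C, in 5 of the 7 (71.4%) and in 22 of the 36 intronic RNAs (61.1%). bktRNA18 and bktRNA39 lack it. With 7 RNAs a share moves by a large step for 1 RNA, and no test of these differences was made.

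Outside the boxes the 7 share little sequence. The longest run common to 2 of them was 5 to 9 nt over the 21 pairs, longest between bktRNA13 and bktRNA33, where it covers box C. The longest run that any of them shares with an intronic RNA was 10 to 12 nt, the 12 nt being between bktRNA21 and bktRNA35. None of the 7 bears a repeat label, against 7 of the 36 intronic RNAs (19.4%). The sources used here do not say whether repeats were looked up for the RNAs called intergenic. No transcript of GENCODE M21 shares a run of 20 nt with any of the 5 intergenic RNAs on either strand. bktRNA18 shares one with Gpd1l alone, and bktRNA14 with Eme1 on its own strand and with Lrrc59 on the other.

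Among the 5 intergenic RNAs, 3 lie a short way past the 3′ end of a protein-coding gene on the same strand. bktRNA39 (chromosome 9, 109845815 to 109845845, plus strand, 31 nt) starts 2698 nt past the end of Nme6, a gene of the nucleoside diphosphate kinase family. bktRNA21 (chromosome 1, 42908546 to 42908593, plus strand, 48 nt) starts 2862 nt past the end of Mrps9, which encodes a protein of the small subunit of the mitochondrial ribosome. bktRNA13 (chromosome 7, 81774511 to 81774538, plus strand, 28 nt) starts 5019 nt past the end of Ramac, which encodes the activating subunit of the mRNA cap methyltransferase. Positions within 10000 nt past the 3′ end of a same-strand protein-coding gene make up 4.57% of all intergenic positions, counted on both strands of the nuclear chromosomes between the first and last annotated gene. That window was chosen after the distances were seen. Within 5000 nt there are 2 of the 5 RNAs and 2.55% of positions, and within 20000 nt there are 3 of 5 and 7.89%. No test was made on 5 RNAs, and transcription past these genes in Hepa1-6 cells is not measured by the table.

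On the far side, 2 of these 3 RNAs face the 3′ end of a gene on the opposite strand. bktRNA39 ends 1533 nt before Camp, the gene of the antimicrobial peptide cathelicidin, so it lies between 2 converging genes. bktRNA13 ends 7643 nt before the converging gene 3110040N11Rik. For bktRNA21 the next gene is Gpr45, an orphan G protein-coupled receptor gene on the same strand, which starts 44278 nt further on.

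The remaining intergenic RNAs lie far from any protein-coding gene. bktRNA33 (chromosome X, 17683088 to 17683121, minus strand, 34 nt) lies 6803 nt upstream of the processed pseudogene Gm9436 on the same strand. Its nearest protein-coding gene is Fundc1, which encodes a mitophagy receptor, at 110762 nt. bktRNA40 (chromosome 11, 38638616 to 38638654, minus strand, 39 nt) has no annotated gene within 50 kb. Its nearest gene is the lincRNA Gm12130 at 118602 nt, and the nearest protein-coding gene, Tenm2, which encodes a teneurin, lies 1402651 nt away.

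**Figure D2:**
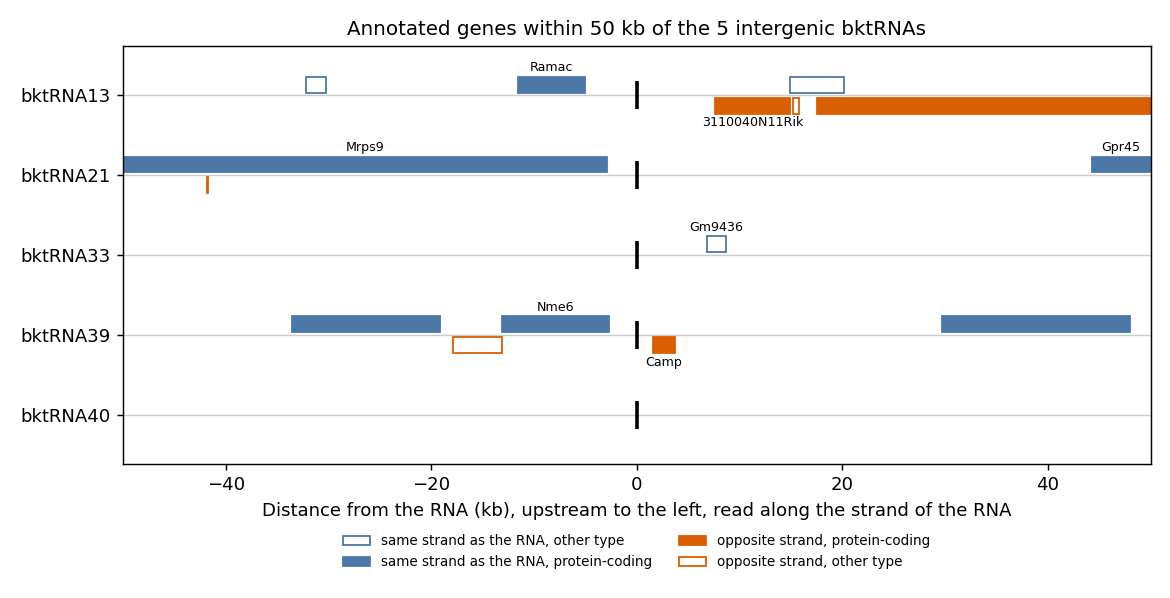
Annotated GENCODE M21 genes within 50 kb of each intergenic bktRNA (black bar at 0), with distance in kb along the strand of the RNA and upstream to the left; filled boxes are protein-coding genes, open boxes are other types, blue is the strand of the RNA and orange the opposite one. bktRNA13, bktRNA21 and bktRNA39 follow Ramac, Mrps9 and Nme6 at 5019, 2862 and 2698 nt, and bktRNA40 has no gene in the window.

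The exonic RNAs lie in the last exon of their host, on its strand. bktRNA14 (chromosome 11, 94645073 to 94645114, minus strand, 42 nt) is in exon 9 of 9 of Eme1, which encodes a subunit of a structure-specific DNA endonuclease. It starts 314 nt after the stop codon and ends 77 nt before the annotated end of the transcript, in a 3′ UTR of 433 nt. The same bases lie in the last exon of Lrrc59 on the opposite strand, which encodes a membrane protein of the endoplasmic reticulum. Eme1 and Lrrc59 converge and overlap by 221 nt (94644996 to 94645216), and bktRNA14 is within that overlap. The sources used here do not say whether reads were counted by strand, so reads of Eme1 and of Lrrc59 cannot be told apart in its values. Its opposite strand holds neither CTGA nor ATGATG or GTGATG.

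bktRNA18 (chromosome 9, 114901491 to 114901522, minus strand, 32 nt) lies in the last exon of Gpd1l, which encodes a protein like glycerol-3-phosphate dehydrogenase. It starts 883 nt after the stop codon in both annotated transcripts that hold it. From its 3′ end to the transcript end it is 2150 nt in the longer of them, with a 3′ UTR of 3065 nt, and 1053 nt in the shorter, with a 3′ UTR of 1968 nt. So bktRNA14 is near the end of its 3′ UTR and bktRNA18 is well inside. Whether the reads are separate small RNAs or pieces of the messenger RNA was not tested.

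**Figure D3:**
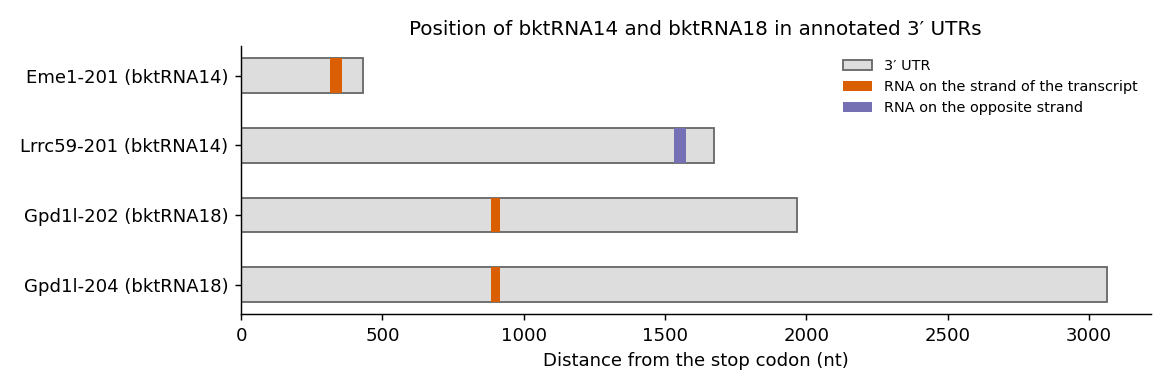
Position of bktRNA14 and bktRNA18 in the annotated 3′ UTRs that hold them, in nt from the stop codon, with 1 transcript per row. bktRNA14 starts 314 nt after the stop codon of Eme1 and also lies, on the opposite strand, 102 nt before the end of Lrrc59; bktRNA18 starts 883 nt after the stop codon of both Gpd1l transcripts.

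Few annotated 3′ UTRs hold the box pattern of these RNAs at their spacing. CTGA followed after 10 to 31 nt by ATGATG or GTGATG, with at least 3 stem pairs between them, was searched on the transcript strand of the longest annotated 3′ UTR of each protein-coding gene. The spacing is the range found in the 7, and 3 pairs is their shortest stem. The boxes of the intronic RNAs are 9 to 135 nt apart, and wider spacings were not searched. The pattern occurred in 38 of 21020 such UTRs (0.181%), 38 times in all, or 0.122 times per 100 kb. The rate expected from base composition was not computed. The UTRs of Eme1 and Gpd1l hold it once each, at bktRNA14 and bktRNA18. The listed RNAs all carry the boxes, so this count describes the letters and is no evidence of binding. Expression of the other genes with the pattern is not in the table.

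The libraries differ in depth, which limits the low values. Low values fall on steps of a fixed RPM, and with each step taken as a single read the depths of libraries 1 to 5 are 34200000, 36300000, 31700000, 30700000 and 17400000 reads. Not all values fit this reading. In library 2 only 19 of the 28 values above 0 were whole multiples of the step. The counts were 25 of 30, 25 of 31, 20 of 25 and 15 of 16 in libraries 1, 3, 4 and 5. Why the other values fall between steps was not tested, so the depths and read counts are estimates. If a listed 0 means no reads, it allows up to 0.0876, 0.0826, 0.0945, 0.0976 and 0.173 RPM in libraries 1 to 5. That is the level of 3 reads and covers counting error only. The lowest values above 0 in libraries 1 to 5 were 0.0584, 0.0551, 0.0630, 0.0651 and 0.115 RPM, 2 reads each. No library thus lists a single read, and whether single reads were listed as 0 is not stated. If they were, the limits of a 0 are higher than those given. Intronic bktRNA6 is at 0 in library 3 but had 1.93, 2.26, 1.75 and 0.634 RPM in libraries 1, 2, 4 and 5. Whether the limit holds for such a 0 was not tested. RPM here is the authors' scaling of reads by library size, and is not divided by RNA length.

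The 7 RNAs were low, and their values varied between libraries, as did those of many intronic RNAs. Of their 35 values, 18 (51.4%) are above 0, against 112 of 180 (62.2%) for the intronic RNAs. None of the 7 is above 0 in all 5 libraries, against 5 of the 36 intronic RNAs. Every one of the 43 is above 0 in at least 2 libraries, and whether this was a condition for listing is not stated. Exactly 2 libraries are above 0 for 4 of the 7 (57.1%) and for 16 of the 36 intronic RNAs (44.4%). The SD over libraries exceeded the mean in 5 of the 7 (71.4%) and in 22 of the 36 intronic RNAs (61.1%). The 6 differences between neighbours in the order of mean RPM were each smaller than the larger SD of the pair, so the order bktRNA13, bktRNA14, bktRNA18, bktRNA21, bktRNA33, bktRNA39, bktRNA40 does not separate any neighbours.

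The 2 exonic RNAs were above 0 in 4 and 3 libraries. bktRNA18, in Gpd1l, had 0.292, 0.914, 0.553 and 0.115 RPM in libraries 1, 3, 4 and 5 and is listed at 0 in library 2. It is the only one of the 7 above 0 in 4 libraries, with a mean of 0.375 RPM ± 0.366 (SD, n = 5). bktRNA14, in Eme1, had 0.438, 0.771 and 0.851 RPM in libraries 1, 2 and 3 and is listed at 0 in libraries 4 and 5, with a mean of 0.412 RPM ± 0.407 (SD, n = 5). Read as steps, the values are 10, 29, 17 and 2 reads for bktRNA18 and 15, 28 and 27 reads for bktRNA14. Library 2 thus holds bktRNA14 but lists bktRNA18 at 0, and library 4 the reverse.

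The 2 most abundant intergenic RNAs each rest on a pair of libraries. bktRNA13, past Ramac, reached 1.54 RPM in library 3 and 0.554 RPM in library 2, while libraries 1, 4 and 5 list it at 0. Its mean was 0.420 RPM ± 0.673 (SD, n = 5), or 0.139 RPM without library 3. The value of library 3 is the highest of the 7 RNAs and corresponds to 49 reads, while that of library 2 is not a whole multiple of the step. bktRNA21, past Mrps9, reached 0.643 RPM in library 1 and 0.390 RPM in library 4, or 22 and 12 reads, while libraries 2, 3 and 5 list it at 0. Its mean was 0.207 RPM ± 0.297 (SD, n = 5), or 0.0976 RPM without library 1. bktRNA13 and bktRNA21 are never above 0 in the same library, as is the case in 3 of the 21 pairs among the 7. Each of the 2 is above 0 in only 2 libraries. Intronic bktRNA32 (libraries 3 and 4) and bktRNA36 (libraries 1 and 2) share none either. Pairs of intronic RNAs were not counted, so this is not read as a trait of the 7. In each of these 2 RNAs the values above 0 exceed the limit of 3 reads in the libraries at 0, if a 0 there means no reads. Intronic bktRNA6 is also at 0 in library 3, with 1.93, 2.26 and 1.75 RPM in libraries 1, 2 and 4. What such a 0 means was not tested, so no difference between libraries is read here.

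The last 3 RNAs are at the edge of detection. bktRNA33 had 0.138, 0.126 and 0.0651 RPM in libraries 2, 3 and 4, which is 5, 4 and 2 reads, and is listed at 0 in libraries 1 and 5. bktRNA39, past Nme6, had values of 0.117 RPM (4 reads, library 1) and 0.0946 RPM (3 reads, library 3), and the other libraries list it at 0. For bktRNA40 the values were 0.0551 RPM in library 2 and 0.115 RPM in library 5, 2 reads each, with the other libraries at 0. Their means were 0.0658 ± 0.0661, 0.0423 ± 0.0584 and 0.0341 ± 0.0512 RPM (SD, n = 5 each). bktRNA39, with the longest stem of the 7, has 7 reads in all. bktRNA13, with a stem of 3 pairs, has about 69, of which 49 are in library 3. A relation between stem and level was not tested, and none is read from these 2 RNAs. Both values of bktRNA40 lie under the limit of 3 reads in their own libraries. The value of library 5 is above the limits of libraries 1, 3 and 4 if a 0 there means no reads, but it rests on 2 reads. No difference between the libraries is therefore read for bktRNA40.

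**Figure D4:**
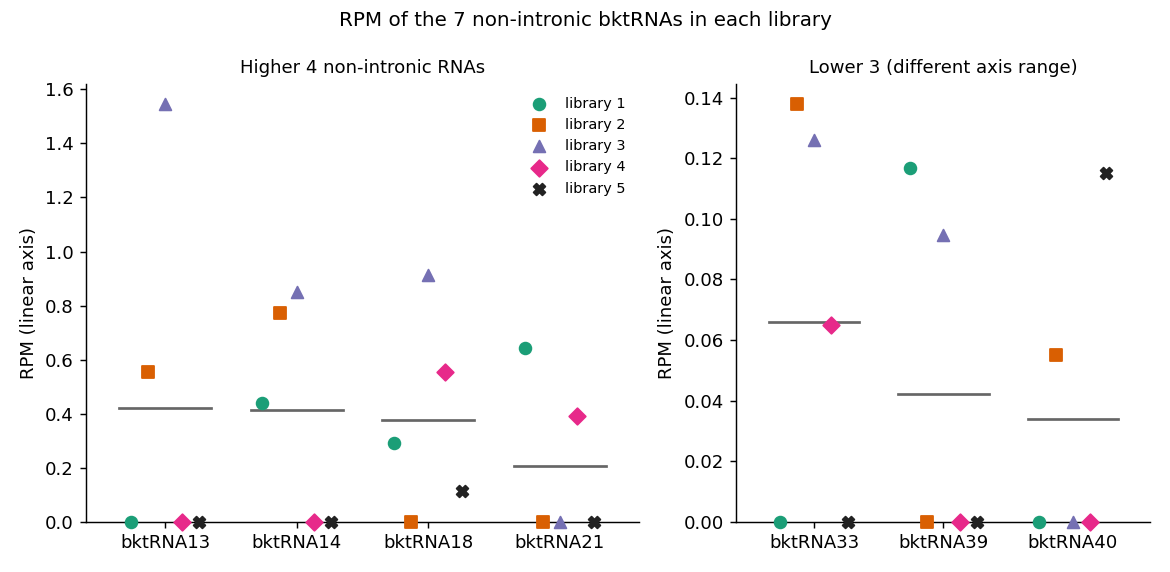
RPM of each non-intronic bktRNA in libraries 1 to 5 (1 point per library, with a linear axis and a separate range for the lower 3), where the grey line is the mean of the 5 libraries. bktRNA13 reaches 1.54 RPM in library 3 and is at 0 in 3 libraries, and bktRNA18 is above 0 in 4 libraries.

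By library, the 7 RNAs summed to 1.49, 1.52, 3.53, 1.01 and 0.230 RPM in libraries 1 to 5, against 68.9, 78.6, 93.7, 94.5 and 62.0 RPM for the intronic RNAs. They held 1.81% ± 1.23 (SD, n = 5) of the listed RPM, from 0.370% in library 5 to 3.63% in library 3. Without bktRNA1, which dominates the intronic sum, the share was 5.70% ± 3.62 (SD, n = 5). Of the 7, libraries 1 to 5 list 4, 4, 5, 3 and 2 above 0, against 26, 24, 26, 22 and 14 of the 36 intronic RNAs. Library 5, the shallowest, has the lowest count in both classes. It also lists some more abundant intronic RNAs at 0. For bktRNA2 the lowest value elsewhere was 5.29 RPM, far above the limit of 0.173 RPM in library 5. bktRNA4, bktRNA5, bktRNA7 and bktRNA8 are at 0 only there too, with no other value under 1.10 RPM. In contrast, bktRNA3 peaked in library 5 at 16.4 RPM and elsewhere reached at most 2.28 RPM. Whether depth accounts for the 0 values of library 5 was not tested. The RNA with the highest RPM of the 7 changed between libraries: bktRNA21 in library 1, bktRNA14 in library 2, bktRNA13 in library 3 and bktRNA18 in libraries 4 and 5, where in library 5 bktRNA40 had the same value.

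The levels of the 7 lay within the range of the intronic RNAs. Mean RPM ran from 0.0341 to 0.420 with a median of 0.207 in the 7, and from 0.0299 to 55.7 with a median of 0.183 in the 36. Per 100 nt of length the medians were 0.430 and 0.488 RPM, the opposite order. The difference in median log2(mean RPM + 1), non-intronic minus intronic, was 0.029 and changed sign under several alternatives, so no direction is given. Every one of the 7 had a mean under 1 RPM, as did 28 of the 36 intronic RNAs (77.8%). The intronic RNAs nearest in mean RPM were bktRNA12 (0.431) to bktRNA13 and bktRNA15 (0.398) to bktRNA14.

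The 7 were 28 to 48 nt long with a median of 34 nt, against 28 to 244 nt with a median of 39 nt in the intronic RNAs. All 7 were under 50 nt, against 22 of the 36 (61.1%). Their stems had 3 to 6 pairs (median 3), against 2 to 8 (median 4), and their loops 3 to 20 nt (median 9), against 1 to 130 nt (median 13). The GC content was 32.1% in bktRNA13 to 57.1% in bktRNA14 (median 45.8%), against 33.3% to 58.1% (median 48.5%). For length, stem and loop the range of the 7 lies inside that of the intronic RNAs, and for GC content bktRNA13 alone lies outside it. No p-value was computed between the classes, since listed RNAs are not replicates of a class.

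**Figure D5:**
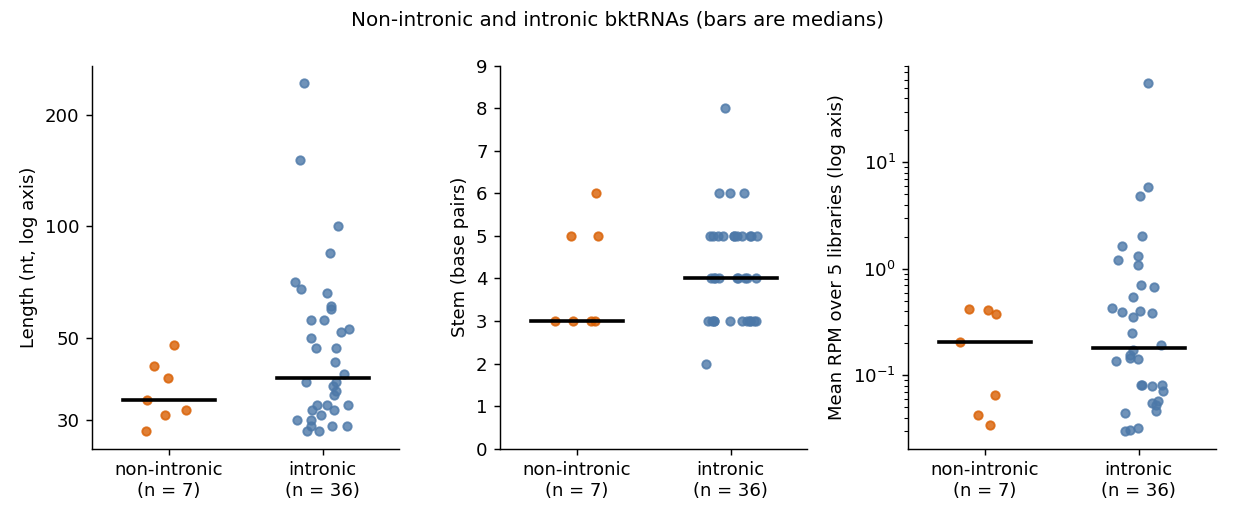
Length (nt, log axis), stem length (base pairs) and mean RPM over 5 libraries (log axis) of the 7 non-intronic and 36 intronic bktRNAs, with 1 point per RNA and the median as a bar. The medians are 34 and 39 nt, 3 and 4 pairs, and 0.207 and 0.183 RPM, and the points of the 7 lie within the spread of the 36.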

How the data were processed

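RNA from 5 anti-FLAG RIP-PEN-seq libraries was measured. The build mm10 and the tools STAR, bedtools and cutadapt 2.8 are named, per the submitters' processing notes. The sources used here give neither their settings nor how RNAs were called and counted, or whether by strand. The deposited values are RPM, scaled by the authors, per the file headers, and the summed column equals the 5 library columns. The deposited score has no definition in the file headers. Deposited starts count from 0; positions here are 1-based. No control library was analysed here, so only means, SDs, counts and medians were computed, with no test and no filter. The members, measures and windows were chosen with earlier results of these data known. All 7 non-intronic RNAs are named.

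Stems were read as uninterrupted Watson-Crick pairs from box D and from 1 nt before box C; the stem reader was checked on simulated sequences. Gene positions were read from GENCODE M21 (GRCm38, the assembly of mm10), and nearest genes also from RefSeq on GRCm38.p6. Read depth was taken from the largest RPM step for which no finer one made over 0.2 more of the values whole within 0.05 steps. Tools were Python 3.11.15, pandas 2.3.3, numpy 2.4.6, RNAfold 2.7.2 and matplotlib 3.10.9. Alternatives left out each library, changed the pseudocount (1 to 0.1), the filter, the class summary, G-U pairing and the gene set.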

Additional observations from a re-analysis of the deposited data

How the results depend on the processing

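The share of listed RPM held by the 7 non-intronic RNAs was 1.81%, between 1.36% (without library 3) and 2.17% (without library 5) when 1 library was left out, and 1.92% from the summed RPM, an alternative chosen after the data were seen; without bktRNA1 in the total it was 5.70%. The difference in median log2(mean RPM + 1), non-intronic minus intronic, was 0.029 and ranged from -0.11 (without library 1) to 0.070 (without library 5), with -0.047 without library 3 and -0.056 without library 4. It was 0.12 with a pseudocount of 0.1, -0.23 among RNAs above 0 in 3 or more libraries and -0.41 with class means; the cause was not tested. The stem of bktRNA18 was 5 rather than 3 pairs with G-U pairs. Distances to the nearest gene changed with protein-coding genes alone for bktRNA33 (110762 nt) and bktRNA40 (1402651 nt), and by at most 72 nt with RefSeq genes. Leaving out 1 library took the mean of bktRNA14 between 0.302 and 0.515 RPM, of bktRNA18 between 0.240 and 0.469, of bktRNA33 between 0.0478 and 0.0822, of bktRNA39 between 0.0236 and 0.0529 and of bktRNA40 between 0.0138 and 0.0426. No paired analysis was possible because the libraries form 1 group. Depth limits bktRNA33, bktRNA39 and bktRNA40, which rest on 11, 7 and 4 reads in all.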
